A study of Homo sapiens with 18 samples.

Results

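The end state of PBITE-1 treatment was described in parental VCaP cells by comparing 3 samples treated with 50 µM PBITE-1 for 12 h with 3 samples treated with DMSO, which together make up 6 of the 18 samples of the series. The samples were taken by their labels, and none was left out. The labels give the same growth medium for both groups. The remaining samples were parental cells treated for 4 or 8 h and VCaP-shERG cells, and the 3 samples of the 8 h group are used below for a direct comparison of the end state with the nearest earlier time. No time is given for the DMSO group in the labels, so time in culture and the compound cannot be told apart. All samples come from a single cell line, and p values measure the spread between its replicates.

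VCaP is a prostate cancer line with luminal features that carries the TMPRSS2:ERG fusion, in which regulatory sequence of the androgen-induced gene TMPRSS2 drives the ETS transcription factor ERG. ETS factors bind DNA through their ETS domain, and ERG also holds a PNT domain, the domain for which PBITE-1 was selected as a ligand. Luminal prostate cells respond to androgen, express FOXA1 and HOXB13, and secrete kallikreins and prostatic acid phosphatase.

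RNA was depleted of ribosomal RNA and sequenced as pairs of reads, and the values are whole-number counts per gene. Totals ranged from 14827453 to 17140075 counts in DMSO and from 13366166 to 15312798 at 12 h, so that 3 counts corresponded to 0.175 to 0.224 CPM, the counts of a gene scaled to a common library total. Levels are given below as CPM after TMM scaling, which are not corrected for gene length, and are compared only within a gene. The first principal component of the 12 parental samples placed the DMSO samples between -78.5 and -77.3 and the 12 h samples between 57.1 and 64.5, and it held 64.2% of the variance. Within a group, no pair of libraries differed by as little as sampling noise (chi-square per degree of freedom 2.81 to 5.18).

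After 12 h, genes of the stress response, inflammatory signalling, and lipid synthesis stood above DMSO, genes of ribosome assembly, DNA replication, and luminal secretion stood below it, and most genes were not called. Of the 14164 genes tested, 2176 were lower and 2420 were higher. A gene is called here when limma-voom gives it a p under 0.05 after Benjamini-Hochberg adjustment and it differs by more than 1 on the log2 scale. These are 15.4% and 17.1% of the genes tested, and the counts of list members called below are to be read beside these shares. In bulk RNA, fewer cells expressing a gene and less RNA per cell cannot be told apart. By the adjusted p alone, 5586 genes were lower (39.4%) and 5583 were higher (39.4%), and 2995 did not pass. The median log2 fold change of all genes tested was -0.01, and its quartiles were -0.64 and 0.68. The larger changes were more often increases: 156 called genes were more than 4 above DMSO on the log2 scale, and 37 were more than 4 below. Called genes were most frequent among weakly expressed genes, with 24.4% lower and 27.2% higher among the 1292 genes under 1 CPM, and 8.11% and 10.9% among the 2183 genes at 100 CPM or more. Of the called genes, 2140 of the lower and 2382 of the higher ones had no overlap between the CPM of the 3 treated and the 3 DMSO samples. The rule for a call itself selects genes with such separation, so these counts are not separate evidence.

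**Figure D1:**
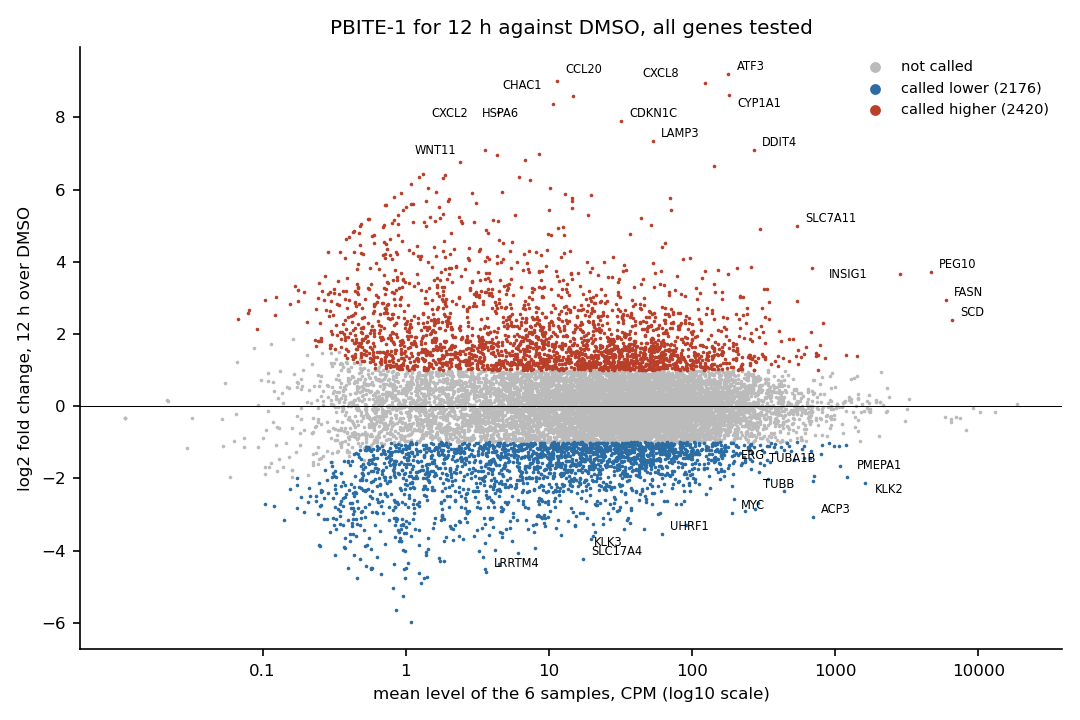
Each point is a gene, with its mean CPM over the 6 samples on the x axis (log10 scale) and its log2 fold change at 12 h over DMSO on the y axis. The 2420 genes called higher (red) reach 9.19 (ATF3), while the labelled abundant genes SCD, FASN, PEG10, and INSIG1 stand out on the right between 2.40 and 3.72.

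Sequence upstream of gene starts was searched for the letters of 10 textbook DNA elements. RefSeq sequences on GRCh38.p14 of the 250 bases before each annotated start were found for 10946 of the tested genes by symbol, with 16047 starts in all, and both strands were searched. A match describes the letters and is not evidence of binding. The letters TGATGNAA, a core shared by elements that C/EBP-ATF heterodimers can bind, were present in 1.68% of all start windows and in 6 of the 41 windows of integrated stress response genes. The following windows, 5′ to 3′ on the gene's strand with the matching letters in capitals (CHAC1 and HERPUD1 carry them on the other strand), are shown because these genes rose with the stress response described below.
ATF3, chr1:212565202-212565237, plus strand: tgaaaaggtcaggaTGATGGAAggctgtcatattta
CHAC1, chr15:40953248-40953283, plus strand: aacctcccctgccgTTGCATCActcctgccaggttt
ASNS, chr7:97872455-97872490, minus strand: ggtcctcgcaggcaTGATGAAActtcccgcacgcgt
HERPUD1, chr16:56931952-56931987, plus strand: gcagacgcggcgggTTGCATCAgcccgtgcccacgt

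The NF-kB-type letters GGANTTTCC were present in 1.45% of all start windows and in 14 of the 34 windows of the list of NF-kB chemokines and feedback inhibitors. They lie in the windows of CXCL8, CXCL1, CXCL2, and CXCL3. The last line gives NFKBIA, which encodes the inhibitor IkBα, with the letters on the gene's own strand.
CXCL8, chr4:73740464-73740500, plus strand: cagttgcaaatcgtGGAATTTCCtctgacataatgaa
CXCL1, chr4:73869301-73869337, plus strand: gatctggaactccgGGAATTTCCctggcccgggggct
CXCL2, chr4:74099250-74099286, minus strand: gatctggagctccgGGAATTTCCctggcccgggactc
CXCL3, chr4:74038745-74038781, minus strand: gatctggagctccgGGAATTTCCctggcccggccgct
NFKBIA, chr14:35404969-35404999, minus strand: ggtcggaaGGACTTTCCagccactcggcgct

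Among replication genes, of which 30 of 56 were called lower, the E2F-type letters TTTCCCGC or TTTGGCGC were present in 16 of 66 windows, against 2.82% of all windows. Besides called genes, the letters lay before GMNN, ORC3, CDT1, POLE, DUT, POLA1, CDC7, and PCNA, which were not called. A link between the letters and the fall was not tested. The genes shown encode subunits of the MCM helicase, and the MCM7 window holds the letters on the other strand.
MCM3, chr6:52284895-52284930, minus strand: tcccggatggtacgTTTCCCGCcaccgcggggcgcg
MCM6, chr2:135876574-135876609, minus strand: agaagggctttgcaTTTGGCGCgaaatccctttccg
MCM7, chr7:100101563-100101598, minus strand: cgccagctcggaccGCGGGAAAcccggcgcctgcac

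The letters TGCACNC or TGCGCNC, the core of metal response elements, are short and were present in 31.7% of all windows and in 13 of the 29 windows of metallothionein and zinc transporter genes. MT1X and MT2A each held several matches, and a pair of those of MT1X is shown because MT1X rose most of the list.
MT1X, chr16:56682306-56682340, plus strand: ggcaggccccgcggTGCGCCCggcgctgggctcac
MT1X, chr16:56682334-56682368, plus strand: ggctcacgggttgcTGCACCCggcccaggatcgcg

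The other 6 elements are given with the share of all windows that held them. The xenobiotic element TTGCGTG was in 0 of 9 windows of aryl hydrocarbon receptor genes (1.22% of all windows), and the sterol element TCACNCCAC in 1 of 27 windows of cholesterol genes (0.773%). The AP-1 letters TGANTCA were in 0 of 25 windows of immediate early genes (4.44%). The ETS letters CCGGAAGT were in 4.10% of the windows of genes called lower and 3.06% of those called higher, against 5.68% of all windows. Lists differed in this. The letters were in 15 of 69 windows of ribosome biogenesis genes and 11 of 73 of nuclear-encoded oxidative phosphorylation genes. They were also in 10 of 78 windows of ribosomal protein genes, which stayed level, and in 3 of 66 of replication genes. A link with the changes was not tested. The antioxidant element TGACNNNGC was in 8 of 30 windows of NRF2-associated genes (11.6%). The E-box CACGTG was in 3 of 16 windows of MYC network genes and 11 of 69 of ribosome biogenesis genes (8.04%).

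ERG itself, the target of the compound, fell at 12 h. ERG (chromosome 21, 38380027 to 38661780 on the minus strand of GRCh38) stood at 280.0, 289.5, and 298 CPM in the 3 DMSO samples and at 102, 88.5, and 101 CPM in the 3 samples at 12 h, so the groups did not overlap. The difference on the log2 scale was -1.58 (SE 0.05) (limma adjusted p = 7.45e-28). TMPRSS2, the fusion partner whose promoter region drives ERG in this line, went from 53.7 ± 1.07 to 14.1 ± 1.89 CPM (-1.95, SE 0.10). The reads do not distinguish the fusion transcript from the remaining alleles. Of the ETS family, 21 of 28 genes were tested, of which 6 were lower and 5 higher, with a median of 0.13. These are 28.6% and 23.8% of those tested, beside 15.4% and 17.1% of all genes. Besides ERG, the lower members were ELF4, FEV, ELK3, ELF5, and SPDEF, the last a luminal epithelial factor. The higher ones were ETV5, ETV7, ETS1, ELF3, and ELF1. ETV7 rose from 0.829 ± 0.128 to 9.97 ± 2.16 CPM (SD, n = 3 each) and ETS1 from 2.90 ± 0.309 to 14.2 ± 2.20 CPM. ETV5 had at most 3 counts in each DMSO sample and stood at 1.79, 2.62, and 2.49 CPM at 12 h.

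Genes of luminal identity fell or stayed within a fold change of 2, and none was called higher. Of 17 luminal genes tested, 7 were lower, with a median of -0.84. By the adjusted p alone, 11 were lower and 4 higher, namely KRT8 (0.95, SE 0.05), CDH1 (0.62, SE 0.04), SLC45A3 (0.53, SE 0.14), and FOXA1. The secreted kallikrein KLK2 stood at 2755, 2595, and 2545 CPM in DMSO and at 615, 581, and 606 CPM at 12 h, and ACP3, which encodes prostatic acid phosphatase, at 1254, 1234, and 1256 and 154, 138, and 152 CPM. Neither gene had any overlap between groups, and the fold changes were -2.13 (SE 0.03) and -3.08 (SE 0.04) on the log2 scale. KLK3, which encodes prostate-specific antigen, fell from 84.3 ± 4.22 to 7.90 ± 0.706 CPM (-3.42, SE 0.11). HOXB13 was called lower (-1.31, SE 0.06), whereas FOXA1, a pioneer factor, did not pass the fold threshold (0.37, SE 0.04). Across 35 androgen-responsive genes, 10 were lower and 3 higher, with a median of -0.62. PMEPA1, which restrains TGF-β signalling, was among the genes with the largest loss in CPM, from 1910.1 ± 20.0 to 496 ± 91.1 CPM. The cytochrome-linked reductase STEAP4 fell (-2.89, SE 0.20), as did the cold-sensing channel gene TRPM8 (-2.67, SE 0.06), while the chaperone FKBP5 had -0.62 (SE 0.05). The 3 higher members were TSC22D3, MAF, and ACSL3, and TSC22D3, which encodes the glucocorticoid-induced leucine zipper, rose from 1.02 ± 0.143 to 13.6 ± 0.777 CPM.

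SLC17A4, a member of a phosphate and urate transporter family, stood at 34.3, 35.2, and 29.3 CPM in DMSO and at 1.71, 1.31, and 2.22 CPM at 12 h, a difference of -4.24 (SE 0.24) in log2 units (limma adjusted p = 1.31e-18). The synaptic adhesion gene LRRTM4 had the most negative value among named genes, -4.58 (SE 0.52), with 7.16, 6.29, and 7.25 CPM in DMSO and 0.149, 0.131, and 0.739 CPM at 12 h. ISX, an intestinal homeobox gene, fell from 8.63 ± 0.853 to 0.407 ± 0.214 CPM (-4.38, SE 0.44). The other genes among the 10 most negative were ART3 (-4.51), PALMD (-4.18), LRFN1 (-4.08), IL1RAPL1 (-4.01), the lymphoid zinc finger gene IKZF3 (-3.99), the defensin DEFB132 (-3.92), and ADAM7 (-3.80). ART3 spans CXCL11 on the opposite strand, which fell as well (-3.59, SE 0.16), and reads of the pair cannot be told apart without strand. By loss of CPM, the tubulin genes TUBA1B and TUBB stood beside KLK2, PMEPA1, and ACP3. TUBB went from 1166, 1146, and 1109.9 CPM to 273, 269.9, and 264 CPM (-2.08, SE 0.03), and TUBA1B from 1638 ± 83.8 to 516 ± 32.0 CPM (-1.67, SE 0.04), although 36.6% of its annotated exon bases are shared with a gene on the opposite strand.

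MYC and the genes that build ribosomes were lower. MYC stood at 334, 356, and 329 CPM in DMSO and at 50.6, 36.0, and 44.8 CPM at 12 h, with no overlap and a difference of -2.97 (SE 0.07) in log2 units (limma adjusted p = 5.9e-32). In the network of factors that pair with MAX or compete with MYC, the repressor genes MXD1 (1.75, SE 0.07) and MXD4 (1.46, SE 0.08) rose, as did MYCL (1.80, SE 0.18) and MLXIPL, which encodes ChREBP, and the partner MAX had 0.78 (SE 0.07). Of 66 ribosome biogenesis genes, 41 were lower, 0 were higher, and 65 were lower by the adjusted p alone, with a median of -1.24 against -0.01 for all genes tested. MYBBP1A, a nucleolar regulator of RNA polymerase I, fell from 106 ± 2.90 to 13.7 ± 0.807 CPM (-2.95, SE 0.08), and RRS1, an assembly factor of the large subunit, from 33.3 ± 3.39 to 3.82 ± 0.359 CPM. NOP56, a core protein of box C/D small nucleolar particles, went from 400.2, 388, and 385 CPM to 133, 145, and 133 CPM (-1.51, SE 0.04). Nucleolin, encoded by NCL, went from 1477, 1411, and 1485 CPM to 660.1, 681, and 708 CPM (-1.09, SE 0.03), and the RNA polymerase I subunit gene POLR1B had -1.52 (SE 0.07). PPAN fell too (-2.73, SE 0.13), with 59.8% of its exon bases shared with the readthrough gene PPAN-P2RY11. The structural proteins of the ribosome did not follow. Of 79 ribosomal protein genes, 1 was called lower and 0 higher, and the median was -0.03. The summed level of the biogenesis factors was 8188 to 8515 CPM in DMSO and 3805 to 3968 CPM at 12 h, and that of the ribosomal protein genes 57667 to 61413 CPM and 57396 to 60195 CPM.

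Genes of the S phase machinery fell, those of mitosis mostly did not, and histone genes rose. Of 56 replication licensing and synthesis genes, 30 were lower and 0 higher, with a median of -1.07. MCM5 stood at 82.7, 84.5, and 78.5 CPM in DMSO and 13.2, 12.9, and 12.7 CPM at 12 h (-2.66, SE 0.09), and MCM2 at 155, 162, and 152 and 35.3, 33.7, and 35.0 CPM (-2.17, SE 0.06). The 6 genes of the MCM2 to MCM7 helicase were called lower, with MCM4 at -1.84, MCM6 at -2.17, MCM3 at -2.11, and MCM7 at -1.89. POLE2, a subunit of the leading-strand polymerase, had -3.08 (SE 0.21), and UNG, which removes uracil from DNA, -2.62 (SE 0.08). The sliding clamp PCNA (-0.89, SE 0.04) and the licensing factors CDC6 (0.08, SE 0.05) and CDT1 (-0.49, SE 0.12) did not pass the fold threshold. In the list of homologous recombination and Fanconi anemia genes, 9 of 30 were lower, among them PALB2 (-1.99, SE 0.21), FANCA (-1.77, SE 0.12), and RAD51D (-1.76, SE 0.10), whereas BRCA1 had -0.50 (SE 0.05) and BRCA2 0.37 (SE 0.06).

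Of 57 mitotic genes, 3 were lower (KIF22, SPC24, and CENPM) and 2 higher (NUSAP1 and CENPA), with a median of -0.07. These are 5.26% and 3.51% of the list, below the 15.4% and 17.1% of all genes. NUSAP1 (2.17, SE 0.59) rested on very few counts, with a mean of 0.168 CPM in DMSO and 0.713 CPM at 12 h. The mitotic cyclin CCNB1 had -0.32 (SE 0.04), the kinases CDK1 -0.22 (SE 0.04), PLK1 -0.26 (SE 0.05), and AURKA -0.18 (SE 0.04). The replication-dependent histone genes moved the other way from the replication machinery: 28 of 41 were higher and 0 lower, with a median of 1.94. H2BC5 rose from 6.52 ± 0.976 to 100.3 ± 3.40 CPM (3.96, SE 0.12), H2BC6 from 2.89 ± 0.539 to 45.9 ± 3.23 CPM, and H2AC6 from 30.1 ± 1.37 to 133 ± 2.54 CPM (2.14, SE 0.06). Histone genes are near-identical in their coding sequence, and counts of single members are uncertain.

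Among regulators of the G1 phase, 11 of 30 were lower and 7 higher. The lower genes included the E2F activators E2F1 (-1.59, SE 0.06), E2F2 (-2.44, SE 0.09), and E2F3 (-2.43, SE 0.05) and their partner TFDP1 (-1.19, SE 0.06), but also the repressive members E2F6 (-1.03, SE 0.08) and E2F8 (-1.90, SE 0.09), the pocket protein RBL1 (-1.29, SE 0.08), and the inhibitor CDKN2A (-1.55, SE 0.25). The others were CDK4 (-1.79, SE 0.06), the phosphatase CDC25A (-2.27, SE 0.08), and the S phase cyclin CCNE2 (-2.16, SE 0.08, with 37.1% of its exon bases shared with INTS8 on the other strand). The higher genes were the inhibitors CDKN1C, CDKN2B, CDKN1A, CDKN1B, and CDKN2D and the cyclins CCND2 and CCND3. CDKN1C, which encodes p57, stood at 0.0657, 0.549, and 0.285 CPM in DMSO and at 72.5, 53.9, and 65.7 CPM at 12 h, 213-fold higher by the group means (7.89, SE 0.56). CDKN1A, which encodes p21, went from 50.2, 46.7, and 44.5 CPM to 363, 410.2, and 390.4 CPM (3.05, SE 0.05), and CDKN2B, which encodes p15, from 0.952 ± 0.364 to 36.9 ± 3.29 CPM. CCND1 had 0.54 (SE 0.03).

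**Figure D2:**
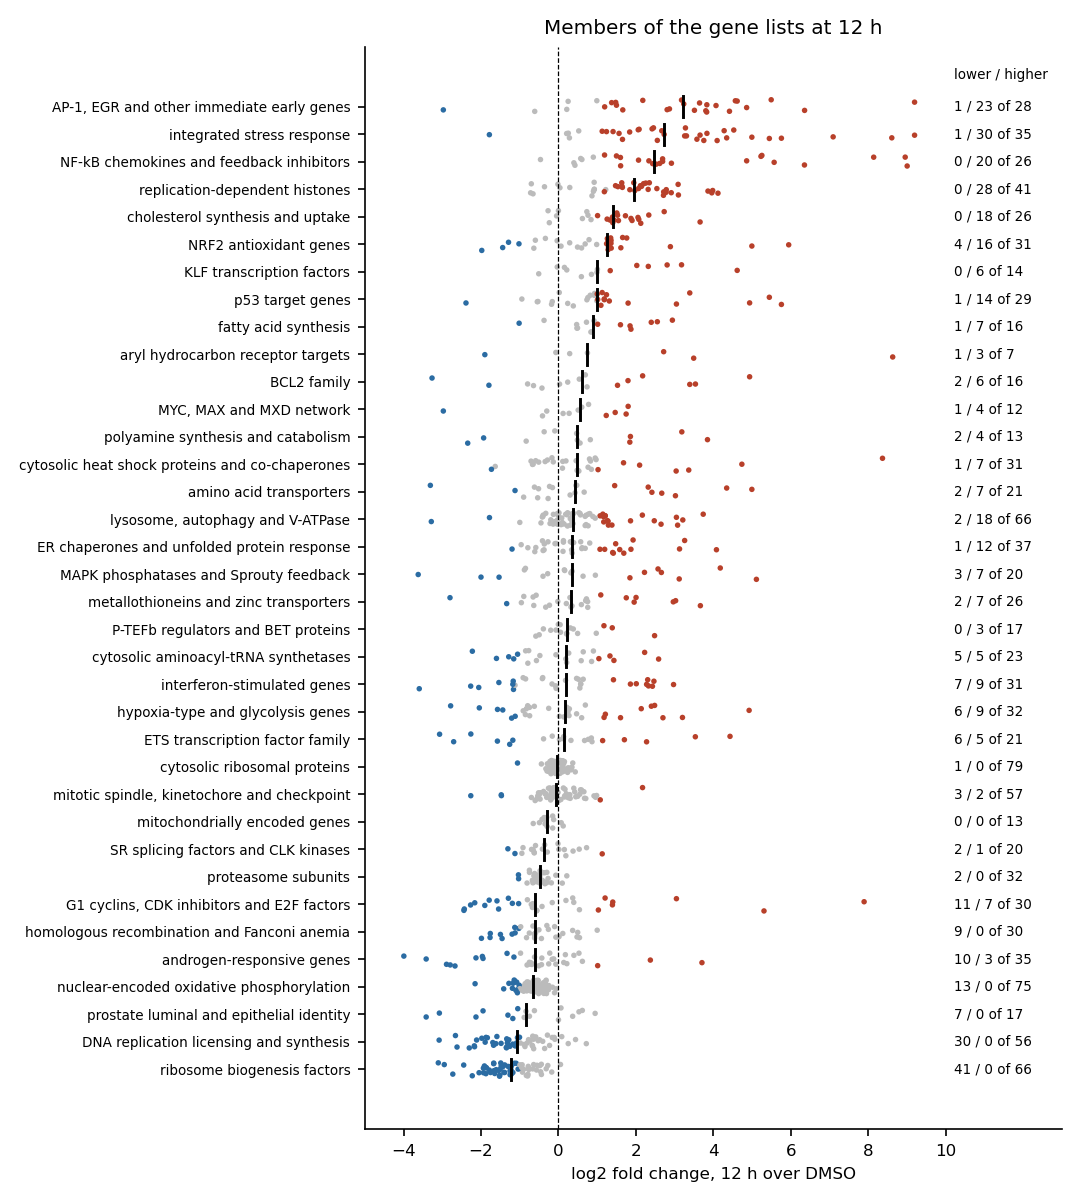
Each point is a gene of the list on the left, placed by its log2 fold change at 12 h over DMSO and coloured blue or red where called lower or higher, with a bar at the list median and the dashed line at the median of all genes (-0.01). Medians run from -1.24 for ribosome biogenesis factors to 3.21 for immediate early genes, and the counts on the right give members lower and higher of those tested.

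The integrated stress response, in which phosphorylation of the initiation factor eIF2α raises translation of ATF4 and the transcription of its targets, was among the lists most raised. Of 35 genes, 30 were higher and 1 lower, with a median of 2.73. ATF3, a stress-induced repressor, had the largest positive fold change among named genes: 0.460, 1.04, and 0.400 CPM in DMSO and 300.4, 421, and 352 CPM at 12 h, 566-fold by the means and 9.19 (SE 0.63) on the log2 scale (limma adjusted p = 2.61e-16). CHAC1, which degrades glutathione, had 3 counts over the DMSO samples and 1290 at 12 h, a ratio of 484 (95% counting interval 165 to 2352). DDIT4, which encodes an inhibitor of mTORC1, went from 3.48, 4.21, and 4.05 CPM to 519, 569, and 527 CPM (7.09, SE 0.17), although 41.2% of its exon bases are shared with an antisense gene. ATF4 rose from 308, 309.8, and 289 CPM to 935, 963, and 949 CPM (1.65, SE 0.03). DDIT3, which encodes CHOP, rose from 10.9 ± 2.28 to 184 ± 22.0 CPM (4.10, SE 0.12, 39.6% of exon bases shared with MARS on the other strand), TRIB3 by 2.55 on the log2 scale, and asparagine synthetase, ASNS, by 3.83. The lower member was VLDLR, a lipoprotein receptor (-1.78, SE 0.06).

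Amino acid supply genes moved in both directions. The cystine transporter SLC7A11 stood at 28.1, 33.9, and 37.0 CPM in DMSO and at 921, 1217, and 1029 CPM at 12 h, 32.0-fold higher (4.99, SE 0.09), and its partner SLC3A2 rose from 37.7 ± 1.51 to 239.7 ± 22.6 CPM. The leucine transporter SLC7A5 was also called higher (4.34, SE 0.51), at only 3.20, 4.64, and 4.71 CPM. Of 21 amino acid transporters, 7 were higher, and SLC3A1 and SLC43A1 were lower. SLC3A1 (-3.31, SE 0.19) shares 54.6% of its exon bases with PREPL on the other strand. Of 23 cytosolic aminoacyl-tRNA synthetase genes, 5 were higher (CARS1, AARS1, GARS1, TARS1, and SARS1) and 5 lower (VARS1, FARSB, EEF1E1, and FARSA among them). These are 21.7% in each direction, near the 17.1% higher and 15.4% lower among all genes tested. CARS1 had 2.59 (SE 0.07) and VARS1 -2.22 (SE 0.08).

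Of 37 genes of the unfolded protein response, 12 were higher and 1, DERL3, lower, with a median of 0.35. DNAJB9, a co-chaperone, went from 10.8, 10.6, and 8.11 CPM to 148, 185, and 160.3 CPM (4.08, SE 0.11). HERPUD1, a component of ER-associated degradation, rose from 59.7 ± 2.20 to 572 ± 58.9 CPM and the stress sensor ERN1, which encodes IRE1α, from 23.2 ± 0.450 to 204 ± 35.3 CPM. The ER chaperone HSPA5, at 1915, 1772, and 1891 CPM in DMSO and 1976, 2069, and 2041 CPM at 12 h, had 0.13 (SE 0.03), and XBP1 had 0.61 (SE 0.05). The sensor ATF6 (0.34, SE 0.05) and the degradation genes DERL1 (0.35, SE 0.04), DERL2 (0.31, SE 0.08), and OS9 (0.69, SE 0.04) were not called either. By the adjusted p alone, 25 of the 37 were higher and 11 lower. The latter included the ER chaperone genes PDIA6 (-0.96, SE 0.04), PDIA3 (-0.79, SE 0.03), CALR (-0.59, SE 0.03), and HSP90B1 (-0.41, SE 0.03). Among cytosolic heat shock genes, 7 of 31 were higher and HSPE1, a mitochondrial co-chaperonin, was lower (-1.73, SE 0.05). The higher share of 22.6% stood beside 17.1% of all genes tested. HSPA6, a strictly inducible HSP70, had 2 counts over the DMSO samples and 929 at 12 h, a ratio of 523 (95% counting interval 144 to 4328). DNAJB1 rose from 47.0 ± 1.92 to 385 ± 21.9 CPM, and HSPA1A and HSPA1B, near-identical neighbours whose reads cannot be separated with certainty, had 4.73 and 3.36. HSPH1 had 0.97 (SE 0.05).

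Most genes of NF-kB signalling and most immediate early genes were higher. CXCL8, a neutrophil chemokine, stood at 0.460, 0.305, and 0.685 CPM in DMSO and at 249.8, 243, and 241 CPM at 12 h, 506-fold higher by the means (8.95, SE 0.78). CCL20 had 1 count over the DMSO samples and 997 at 12 h, a ratio of 1123 (95% counting interval 201 to 44409.9). CXCL2 had 0 counts in each DMSO sample and 10.4, 6.80, and 9.14 CPM at 12 h, at least 143-fold higher against a floor of 3 counts over the DMSO group. CXCL1, CXCL2, and CXCL3 are close paralogs, with CXCL1 at 5.25 (SE 0.69) and CXCL3 at 5.57 (SE 0.83), and the division of reads between them is uncertain. The feedback inhibitors NFKBIA and TNFAIP3 rose from 38.1 ± 0.292 to 192 ± 13.1 CPM and from 2.33 ± 0.860 to 85.3 ± 7.38 CPM. In all, 20 of 26 genes of the list were higher and 0 lower, with a median of 2.48.

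Of 28 immediate early genes, 23 were higher, and MYC was the one lower. The median was 3.21. With at least 10 counts required in every sample, 12 of the NF-kB list and 14 of the immediate early list were higher, with medians of 1.60 and 1.66. That filter drops members near absence in DMSO, such as CCL20 and CXCL2 of the NF-kB list. Such members passed the main filter through treated samples and could in practice be called only higher. The counts and medians of the full lists rest in part on them. JUN went from 29.6, 27.5, and 24.3 CPM to 369, 395, and 384 CPM (3.83, SE 0.13), FOS from 0.615 ± 0.142 to 28.3 ± 2.12 CPM (5.49, SE 0.32), and EGR1 from 2.62 ± 0.373 to 37.2 ± 3.31 CPM (3.83, SE 0.18). ATF3 belongs to this list and to that of the integrated stress response. The KLF family had 6 of 14 members higher, with KLF2 rising from 0.399 ± 0.272 to 8.52 ± 1.41 CPM, KLF6 from 32.0 ± 1.42 to 290.1 ± 33.9 CPM and KLF4 from 11.6 ± 0.656 to 81.1 ± 8.13 CPM. Phosphatases and Sprouty proteins that restrain MAPK signalling differed among themselves: SPRY3 (5.11, SE 0.66), DUSP1 (2.66, SE 0.14), DUSP5 (3.12, SE 0.27), and DUSP10 (4.18, SE 0.29) were among 7 higher genes, SPRY4 (-3.62, SE 0.36), SPRY1, and DUSP9 were lower, and DUSP6 (0.15, SE 0.40, 40.5% of exon bases shared with a gene on the other strand) and SPRY2 (0.35, SE 0.20) did not pass. Interferon-stimulated genes were divided, with 9 higher and 7 lower of 31. IRF7 (2.97, SE 0.15) and IRF1 (2.46, SE 0.13) rose, and ISG15 had 0.57 (SE 0.26). HEXIM1, the inhibitor of the elongation kinase P-TEFb, rose from 48.9, 47.3, and 53.7 CPM to 291, 267, and 279.8 CPM (2.48, SE 0.05), with AFF4 and BRD2 the other 2 of 17 P-TEFb and BET genes called (17.6%, beside 17.1% of all genes), while CDK9 had 0.38 (SE 0.07).

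SCD, FASN, PEG10, and INSIG1 were among the 5 genes with the largest gain in CPM. SCD, the stearoyl-CoA desaturase, stood at 2098, 2053, and 2111 CPM in DMSO and at 11120.1, 10609, and 11229.6 CPM at 12 h (2.40, SE 0.03, limma adjusted p = 1.76e-41). FASN, the fatty acid synthase, went from 1390.0, 1463, and 1267 CPM to 11200.3, 9937, and 10477 CPM, 7.67-fold higher (2.94, SE 0.04). INSIG1, which retains SREBP in the endoplasmic reticulum and is itself an SREBP target, went from 421, 398, and 428 CPM to 5170.2, 5211, and 5320.3 CPM (3.66, SE 0.05). No sample of either group overlapped the other in these genes. PEG10, a gene derived from a retrotransposon, went from 628, 655, and 681 CPM to 8501, 8513, and 8883 CPM (3.72, SE 0.03).

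Of 26 genes of cholesterol synthesis and uptake, 18 were higher and 0 lower, with a median of 1.42. The summed level of the list was 5258 to 5452 CPM in DMSO and 16371 to 16768 CPM at 12 h. HMGCS1, which encodes a synthase of the pathway, at 954 ± 38.3 and 1618 ± 92.7 CPM, did not pass the fold threshold (0.76, SE 0.04). LPIN1 (2.73, SE 0.06) and MVD (2.33, SE 0.13) rose. In fatty acid synthesis, 7 of 16 genes were higher, including ACSS2 (2.55, SE 0.05), and ELOVL6 was lower (-1.02, SE 0.05), while ACACA, the carboxylase that supplies malonyl-CoA, had 0.84 (SE 0.03). Of 8 LXR target genes, MYLIP was higher and NR1H3 lower, and ABCA1 had 0.80 (SE 0.22).

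Among genes of the aryl hydrocarbon receptor, 3 of 7 were higher and 1 lower. CYP1A1 (chromosome 15, 74719542 to 74725610), the classical target of the aryl hydrocarbon receptor, stood at 0.920, 0.732, and 1.03 CPM in DMSO and at 351, 361, and 378 CPM at 12 h, 407-fold higher by the means (8.63, SE 0.28, limma adjusted p = 1.79e-26). The receptor gene AHR (3.49, SE 0.25, with 32.3% of its exon bases shared with a gene on the same strand) and TIPARP (2.72, SE 0.11) rose with it, whereas CYP1B1, another textbook target, fell from 19.6, 21.4, and 18.4 CPM to 5.88, 5.36, and 4.64 CPM (-1.90, SE 0.14) and AHRR had -0.07 (SE 0.38). Only 7 of the 10 genes of that list were tested. Among NRF2-associated genes, 16 of 31 were higher and 4 (ABCC3, GPX2, TXN, and PRDX1) lower, with a median of 1.24. The heme oxygenase HMOX1 stood at 0.0657, 0.183, and 0.114 CPM in DMSO and at 5.21, 13.5, and 9.41 CPM at 12 h (5.94, SE 0.74), and thioredoxin reductase, TXNRD1, at 489.5, 461, and 479 and 1009.6, 1469.6, and 1189 CPM (1.35, SE 0.06). GCLM rose (1.28, SE 0.07), and NQO1 did not pass (0.29, SE 0.15). The metallothionein MT1X went from 25.8, 26.1, and 25.9 CPM to 352, 334, and 303 CPM (3.66, SE 0.10) and MT2A from 36.8 ± 3.09 to 287 ± 24.4 CPM (2.96, SE 0.09), and the zinc exporter SLC30A1 rose by 1.75 on the log2 scale. In all, 7 of 26 metallothionein and zinc transporter genes were higher and 2, SLC30A10 and SLC39A4, lower, with a median of 0.34. These are 26.9% and 7.69%, beside 17.1% higher and 15.4% lower among all genes tested. Metallothionein genes are near-identical to each other, and their single counts are uncertain.

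All 75 nuclear-encoded oxidative phosphorylation genes had a negative log2 fold change, 72 of them at an adjusted p under 0.05, and 13 were called lower (median -0.65). The called share of 17.3% stood beside 15.4% of all genes tested, of which 39.4% were lower by the adjusted p alone. ATP5MC1, which encodes subunit c of ATP synthase, fell from 50.4 ± 3.53 to 11.3 ± 0.224 CPM (-2.15, SE 0.10), and NDUFS6 of complex I was also lower (-1.41, SE 0.08), while NDUFA4 had -0.82 (SE 0.06) and COX4I1 -0.33 (SE 0.06). None of the 13 mitochondrially encoded genes was called (median -0.30). Of 32 hypoxia-type and glycolysis genes, 9 were higher and 6 lower, and glycolytic enzymes were called in both directions. The shares of 28.1% higher and 18.8% lower stood beside 17.1% and 15.4% of all genes tested. VEGFA, an angiogenic factor, rose from 19.6, 18.6, and 18.8 CPM to 557, 571, and 601 CPM (4.92, SE 0.07), as did the prolyl hydroxylases P4HA1 and P4HA2, together with the aldolase genes ALDOC (2.40, SE 0.10) and ALDOA (1.18, SE 0.19), while other glycolytic genes, GPI (-1.57, SE 0.04), ENO1 (-1.44, SE 0.03), PFKP (-2.04, SE 0.08), and LDHA (-1.12, SE 0.04), fell. Of 32 proteasome genes, 2, PSMB2 and PSMC3, were lower (6.25%, beside 15.4% of all genes) and 0 higher (median -0.48). Of 66 lysosome and autophagy genes, 18 were higher and 2, ATG9B and TFEB, lower. These are 27.3% and 3.03%, beside 17.1% and 15.4% of all genes. MAP1LC3B, a marker of autophagosomes, rose from 8.53 ± 0.980 to 114 ± 14.6 CPM (3.74, SE 0.12). LAMP3, a lysosomal membrane protein gene that is not a member of that list, stood at 0.723, 0.427, and 0.742 CPM in DMSO and 80.3, 119, and 118 CPM at 12 h (7.35, SE 0.50).

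In polyamine metabolism, the synthetic genes SRM (-2.34, SE 0.09) and AMD1 (-1.93, SE 0.04) fell and the catabolic genes SAT1 (3.85, SE 0.07), PAOX, and SMOX rose together with AZIN2. ODC1, the target of the antizymes, had -0.10 (SE 0.04). Of 20 splicing genes, SRSF7 and SRSF2 (36.7% of exon bases shared with MFSD11 on the other strand) were lower and CLK1 higher. These are 10.0% and 5.0%, below the 15.4% and 17.1% of all genes tested. In Polycomb repressive complex 2, the enzyme EZH2 had 0.04 (SE 0.05), PHF19 and RBBP7 were lower, and EPOP was higher. WNT11, among the 10 most raised genes, had 2 counts over the DMSO samples and 312 at 12 h, a ratio of 176 (95% counting interval 48.2 to 1458).

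The called members of the BCL2 family were mostly pro-apoptotic and higher. Of 16 BCL2 family genes, 6 were higher (BBC3, HRK, PMAIP1, BCL2L11, BMF, and BIK), which encode pro-apoptotic proteins, and 2 were lower (BID and BCL2). BBC3, which encodes PUMA, stood at 1.05, 0.549, and 0.628 CPM in DMSO and at 19.0, 26.3, and 22.4 CPM at 12 h (4.93, SE 0.35). BCL2L11, which encodes BIM, rose from 26.3 ± 2.21 to 119 ± 8.91 CPM (2.17, SE 0.07), and the protective member MCL1 had 0.74 (SE 0.04). Among p53 target genes, 14 of 29 were higher and AEN was lower (-2.39, SE 0.09), with a median of 0.99. GDF15 (5.44, SE 0.19) and SESN2 (5.76, SE 0.24) led the list, both of which also belong to the stress response list, and MDM2, the p53-induced ubiquitin ligase, had 0.38 (SE 0.04).

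The label was checked against markers of luminal cells and of other cells. FOXA1, HOXB13, KLK2, KRT8, KRT18, and EPCAM were tested and expressed in both groups. Of 20 markers of blood, endothelial, stromal, neural, and basal cells, 10 passed the filter on low counts, and their summed level was 82.9 to 94.0 CPM in DMSO and 93.0 to 99.0 CPM at 12 h. CHGA and SYP made up most of this sum, and the other 8 markers summed to at most 11.6 CPM in each DMSO sample and at most 18.4 CPM in each sample at 12 h, with no overlap between the groups. CD3E and COL3A1 had 0 counts in each of the 6 samples. The called members were VWF, KRT14, and CD14 (lower) and TP63, PECAM1, COL1A1, and ACTA2 (higher), and their part in the results above was not tested. TP63 had 0 counts in each DMSO sample and 0.763 ± 0.260 CPM at 12 h (at least 12.4-fold against the floor), PECAM1 had 3 counts over the DMSO samples against 67, and KRT14 had -2.35 (SE 0.32). Of 9 neuroendocrine and neuronal genes tested, NCAM1 (1.60, SE 0.08) and SYT4 (1.10, SE 0.09) were higher, while CHGA had -0.48 (SE 0.08) and SYP 0.38 (SE 0.07).

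The end state was then compared directly with 8 h of treatment. The difference itself does not use the levels in DMSO, but the DMSO samples enter the scaling and the shared estimate of the spread. Between 8 and 12 h, 933 genes were lower (6.59% of those tested) and 493 higher (3.48%) by the same rule, with a median log2 difference of -0.04. With only the 8 h and 12 h samples in the fit, 866 were lower and 535 higher. Some of the changes from DMSO differed little from those at 8 h. ERG had 96.6, 94.0, and 90.7 CPM at 8 h and differed by 0.04 (SE 0.05) at 12 h, INSIG1 by 0.09 (SE 0.04), and ATF3 by 0.48 (SE 0.07), none of which is past the fold threshold. The integrated stress response list had 1 gene higher (ALDH1L2) and 0 lower between these times, with a median difference of 0.22, and no ribosomal protein gene was called.

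Other genes differed strongly between 8 and 12 h. CYP1A1 stood at 3.97, 2.75, and 3.86 CPM at 8 h, and its difference to 12 h was 6.69 (SE 0.16) (limma adjusted p = 1.06e-29). HSPA6 was at 0.233, 0.206, and 0.0897 CPM at 8 h and differed by 6.66 (SE 0.54), and CXCL2, at 0, 0.138, and 0.628 CPM at 8 h, by 6.04 (SE 0.66). Among genes called between these times with a mean count of at least 50 over the 6 samples and no overlap, the 5 most positive differences were completed by HSPA1A (2.78, SE 0.19) and CADM2, a cell adhesion gene (2.85, SE 0.29). The 5 most negative under the same conditions were those of UHRF1 (-2.93, SE 0.10), which maintains DNA methylation at replication forks, KLK3 (-2.71, SE 0.11), MGAT3 (-2.66, SE 0.29), VWA5B1 (-2.58, SE 0.20), and the prostate transglutaminase TGM4 (-2.57, SE 0.12). UHRF1 stood at 78.1, 71.0, and 72.6 CPM at 8 h and at 10.5, 8.83, and 9.95 CPM at 12 h.

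Of the 40 lists, that of DNA replication had the largest median difference between 8 and 12 h. Of the 56 replication genes, 22 were lower at 12 h than at 8 h and 0 higher, with a median difference of -0.85, against 6.59% lower among all genes. MCM5 differed by -1.60 (SE 0.09) and MCM2 by -1.36 (SE 0.06). E2F1 stood at 125, 121, and 121 CPM at 8 h, above its level in every DMSO sample, and at 36.6, 37.5, and 34.6 CPM at 12 h (-1.76, SE 0.06). Among luminal secretory genes, KLK2 (-1.75, SE 0.03) and ACP3 (-2.47, SE 0.04) were lower at 12 h than at 8 h too. In the whole luminal list of 17, 3 were lower between these times and 1, SLC45A3 (1.60), was higher. Of ribosome biogenesis genes, 5 of 66 were lower, near the share of 6.59% among all genes. On the raised side, FASN (1.34, SE 0.04), SCD (1.45, SE 0.03), and PEG10 (1.58, SE 0.02) were higher at 12 h than at 8 h. So were 5 of 37 genes of the unfolded protein response, against 3.48% of all genes, among them DNAJB9 (2.70, SE 0.08). CXCL8 (1.76, SE 0.11), LAMP3 (2.16, SE 0.11), and CDKN1C (2.08, SE 0.11) were higher at 12 h than at 8 h as well. Of histone genes, 6 of 41 were lower at 12 h than at 8 h, against 6.59% of all genes, and none was higher (median -0.63), and their median over DMSO was 1.94 at 12 h. KLF2 (-2.03, SE 0.12) and ABCA1 (-1.21, SE 0.16) were also lower at 12 h than at 8 h.

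**Figure D3:**
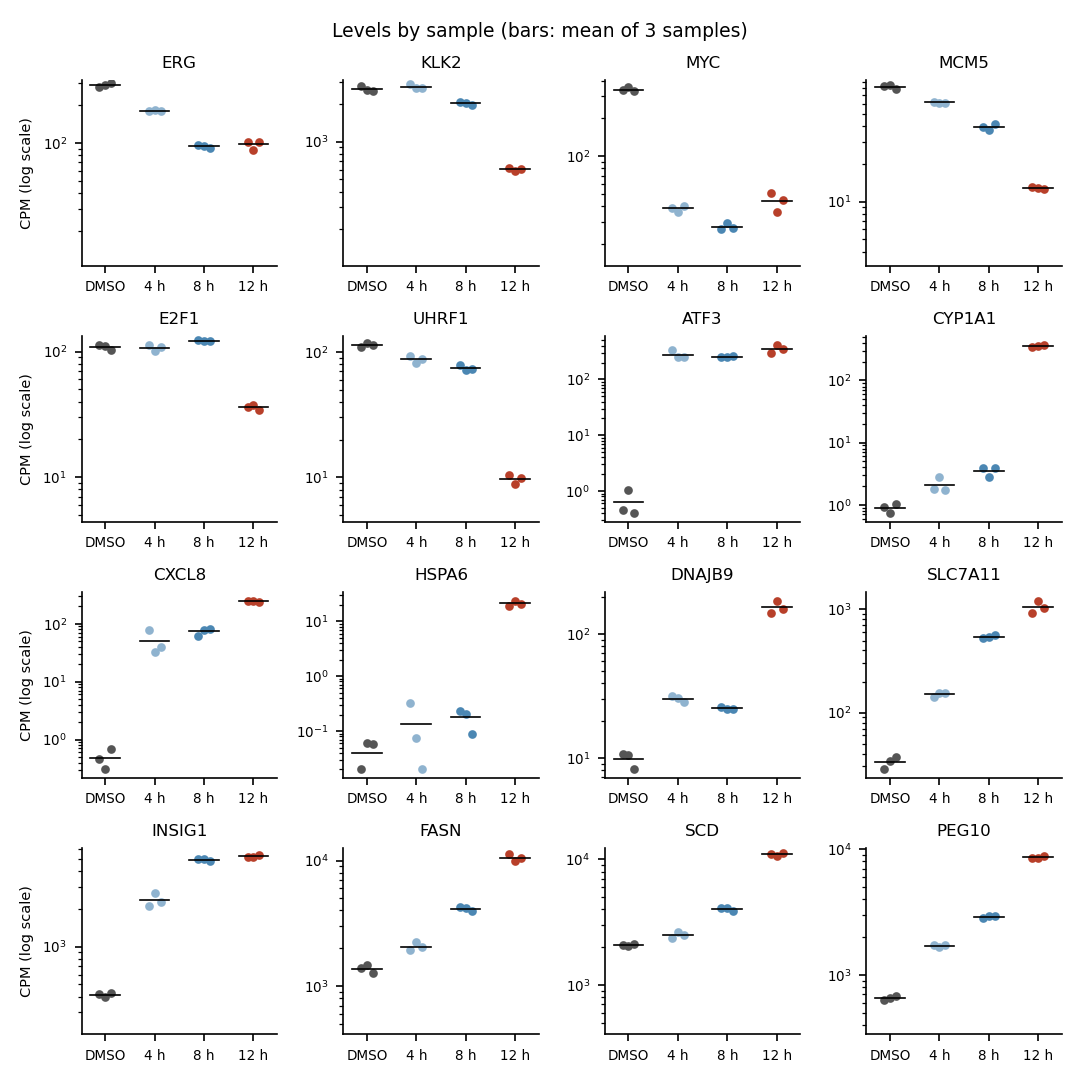
CPM on a log scale in each of the 3 samples of the DMSO, 4 h, 8 h, and 12 h groups for 16 genes, with a bar at the mean and values below 0.02 CPM drawn at 0.02. ERG and INSIG1 sit at similar levels at 8 and 12 h, whereas CYP1A1 and HSPA6 stand apart from all earlier samples at 12 h and E2F1, UHRF1, and KLK2 drop there.

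Set side by side over the same DMSO samples, the list medians show these courses. The immediate early list had medians of 3.00, 3.15, and 3.21 at 4, 8, and 12 h, and the NRF2 list 0.18, 0.37, and 1.24. Replication genes had -0.02, -0.28, and -1.07, and ribosome biogenesis genes -0.22, -0.74, and -1.24.

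**Figure D4:**
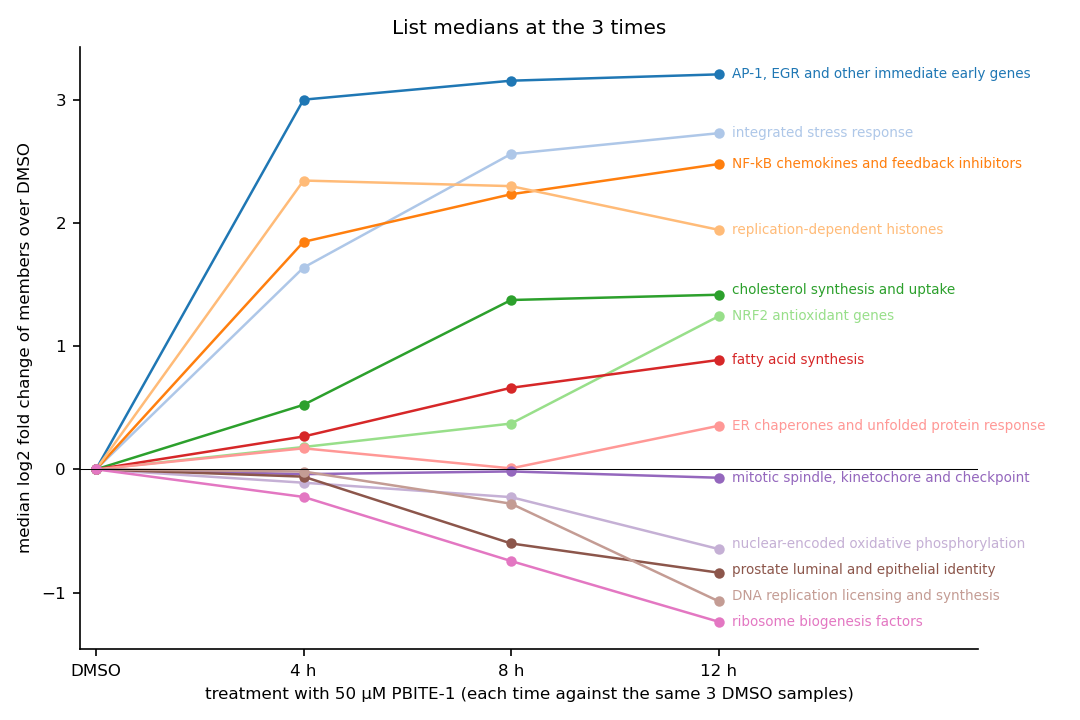
Lines join the median log2 fold change of 13 gene lists at 4, 8, and 12 h, each against the same 3 DMSO samples (set to 0 on the left), with time on the x axis. Immediate early genes are at 3.00 by 4 h and 3.21 at 12 h, while the NRF2 list goes from 0.37 at 8 h to 1.24 at 12 h and replication genes from -0.28 to -1.07.

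The 3 libraries at 12 h were not equally far from DMSO. Replicate 2 was the farthest of the 3 in 43.4% of the lower and 49.7% of the higher genes, and replicate 1 in 27.4% and 22.9%. In HMOX1, TXNRD1, and SLC7A11 above, replicate 2 was the highest and replicate 1 the lowest, and in PMEPA1 replicate 2 was the lowest. Without replicate 2, 2108 genes were lower and 2370 higher, and without replicate 1, 2228 and 2428.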

How the data were processed

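Total RNA of VCaP cells was sequenced after removal of ribosomal RNA. The authors deposited unnormalized counts per gene for all 18 samples. Their methods name Kallisto for quantification, whereas the submitters' processing notes name STAR, featureCounts, and the build hg38, so that the counting tool and its use of strand are not settled. Of 22034 identifiers, 22011 were matched to a symbol and 21921 to GENCODE release 29 on GRCh38, from which positions and exon overlaps come.

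The filter filterByExpr of edgeR, run on the 6 groups, left 14164 genes. After TMM scaling, voom weights and moderated linear models were computed (limma 3.58.1, edgeR 4.0.16, R 4.3.3) on the 12 parental samples, with Benjamini-Hochberg adjustment. On simulated counts of 14164 genes, of which 200 were changed by 1.5 on the log2 scale, all 200 were recovered in the comparison with DMSO. Recovery was not broken down by expression level. It therefore gives no sensitivity for weakly expressed genes, among which called genes were most frequent. Intervals and floors cover counting error only.

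Named genes are the 10 most negative and 10 most positive called genes (mean count at least 50, no overlap between groups), the 5 largest gains and losses in CPM, the 5 most negative and most positive differences from 8 h (under the same conditions), and, per list, fixed key genes and the 3 largest changes. Members that were the few called in a direction, that differed from most of their list, or that hold a printed promoter match were named after their values were seen. The comparison and the lists were chosen with earlier results of these data known. Alternatives included DESeq2 1.42.0. Some members of the lists are not reported here by name.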

Additional observations from a re-analysis of the deposited data

Results flagged for a closer look

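For 10 named genes, the difference from DMSO had opposite signs at 8 h and at 12 h, each at a limma adjusted p under 0.05, and the direct test of 12 h against 8 h passed as well. Of these, E2F1 and PCNA differed by more than 1 on the log2 scale. E2F1 had 0.17 at 8 h and -1.59 at 12 h over DMSO, a difference of -1.76 (SE 0.06). PCNA had 0.13 and -0.89, a difference of -1.02 (SE 0.04). CDT1 differed by -0.88 (SE 0.11), ATP5F1B of the ATP synthase by -0.50 (SE 0.03), ODC1 by -0.50 (SE 0.04), CDK1 by -0.41 (SE 0.04), and RPS6 by -0.16 (SE 0.03), all from above DMSO at 8 h to below it at 12 h. In the other direction, MDM2 differed by 0.59 (SE 0.04), FOXA1 by 0.56 (SE 0.04), and HSPA5 by 0.49 (SE 0.03).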

How the results depend on the processing

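The counts of genes called at 12 h stayed within 1.5 times of those reported under edgeR's quasi-likelihood test, DESeq2, 3 other scalings, no filter on low counts, other sets of samples in the fit, sample quality weights, and an adjusted p under 0.01. The test against a log2 fold change of 1 (limma treat) gave 1277 genes lower and 1557 higher against DMSO and 195 lower and 86 higher against 8 h. With at least 10 counts required in every sample compared, 537 genes were lower against 8 h, where 12561 genes were tested. The members called higher against DMSO then went from 7 to 4 for G1 regulators and 9 to 4 for interferon-stimulated genes. They went from 20 to 12 for the NF-kB list and 23 to 14 for immediate early genes. Members with low counts in any sample compared, including those near absence in DMSO, were left out there. Omitting 1 sample at a time gave 2108 to 2228 lower and 2365 to 2428 higher genes against DMSO, and 866 to 920 lower and 481 to 513 higher against 8 h. Samples with the same replicate number did not deviate together (correlations -0.02 to 0.02). With the replicate number as a block, 2166 genes were lower and 2410 higher against DMSO and 935 and 486 against 8 h, and it changed no call of the 231 named genes. Under limma treat, 8 named genes lost their call (among them PSMB2, PSMC3, SARS1, SYT4, GABARAPL1, and H4C3). Leaving out a DMSO sample ended the call of PSMB2 (-0.998), SYT4 (0.99), or H4C3 (0.96), and leaving out 12 h replicate 2 ended those of PSMB2 (-0.97) and PSMC3 (-0.98). HSPH1 passed the threshold without 12 h replicate 1 (1.04). Omitting 1 sample at a time, EZH2 ranged from -0.011 to 0.083 (negative without DMSO replicate 1) and DUSP6 from -0.20 to 0.47 (negative without 12 h replicate 3), and neither was called. The median of ribosomal protein genes changed sign without DMSO replicate 1. Scaling moved the median of all genes by less than 0.1. Genes under about 0.2 CPM in both groups are beyond the reach of this depth.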

Other observations

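Some genes went from near absence to clear detection, or the reverse. With at most 3 counts in each DMSO library and at least 20 in each 12 h library, 37 genes appeared, and 19 disappeared by the mirrored rule. Besides CHAC1, CCL20, HSPA6, HMOX1, CXCL2, and WNT11, the genes that appeared with the highest mean counts at 12 h were ATP10D, a flippase-type ATPase (213.3 counts), TMEM132B (89.0), ZCCHC12 (85.3), and NR1H4, which encodes the bile acid receptor FXR (71.0). FOXJ1, the master gene of motile cilia, had a mean of 0.3 counts in DMSO, 1.3 at 8 h, and 25.3 at 12 h. Among the genes that disappeared were AGR3 (58.3 mean counts in DMSO and 2.3 at 12 h), SMIM47 (44.0 and 2.7), the kinase gene LCK (30.7 and 2.0), STING1, which encodes the cytosolic DNA sensor adaptor (29.7 and 2.0), and UGT2B17, an androgen-glucuronidating enzyme with close paralogs (29.7 and 1.7). These genes were picked after their values were seen and carry no separate test.

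By gene span, the median log2 fold change of protein-coding genes ran from -0.13 in genes of 5000 to 10000 bases to 0.17 in genes of 100000 to 200000 bases, and 21.9% of genes over 200000 bases were called higher against 15.1% of those of 5000 to 10000 bases. The shares did not follow span throughout, since genes under 5000 bases had 20.8% higher and 16.6% lower (median -0.09).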
